A study of Mus musculus with 112 samples.

Results

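The lncRNAs (long noncoding RNAs) Gm37262, Gm44130, Gm44045, Gm45354 and Gm42929 were followed across cell fractions when U1 small nuclear ribonucleoprotein (snRNP) was blocked or lost in embryonic stem cells (ESCs) of the mouse. They are 5 of the 1279 lncRNAs with total RNA values and were chosen by measured values, since their rises under a U1 antisense oligonucleotide were among the largest on chromatin or in soluble fractions. All 5 are predicted loci known by number, with the identifiers ENSMUSG00000103525.1, ENSMUSG00000108211.1, ENSMUSG00000107461.1, ENSMUSG00000108689.1 and ENSMUSG00000106022.1 in that order. All 5 were read in both total RNA tables, 1 of them (Gm42929) also among the 1246 lncRNAs of polyadenylated (polyA) RNA, and 0 among the 492 lncRNAs of labelled RNA. The data go against describing them as rising everywhere. Under that oligonucleotide 4 had higher levels on chromatin and in both soluble fractions. Gm42929 was higher in the soluble fractions and overlapped the control libraries on chromatin, with a direction there that depends on the scaling. These levels come from the comparison that chose the members, so they describe the choice and are no separate result.

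U1 snRNP recognises 5′ splice sites at the start of splicing, and it also protects nascent transcripts from early cleavage and polyadenylation. U2 snRNP acts later, at the branch point. Many lncRNAs stay on chromatin, and binding by U1 snRNP is known to favour this.

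The first set used 46C ESCs (strain 129/Ola) nucleofected with antisense morpholino oligonucleotides (AMOs), which mask a small nuclear RNA, and taken after 2 h. Control, U1 and U2 AMO were given at 75 µM and the U1+U2 AMO at 50 µM. The second set used an ESC line derived from 46C in which SNRNP70, a protein specific to U1 snRNP, carries an auxin-inducible degron (AID), so that indole-3-acetic acid (IAA) removes it. Cells were taken without IAA (0 h) or after 4 h of 500 µM IAA, and both arms carry the degron. Each set was read in whole cells, chromatin, cytoplasm and nucleoplasm, with 3 libraries per group, apart from whole-cell control AMO with 2. The sources used here do not say whether libraries of a group came from separate cultures, so the spread may be technical.

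Levels are FPKM (fragments per length of transcript and depth), which the authors scaled to spike-in RNA in the 3 fractions; the headers name no such step for whole cells. A change is a difference of log2(FPKM + 0.2) in the AMO set and of log2(FPKM + 0.1) in the SNRNP70 set, which understates changes of low levels. An adjusted p is from limma with Benjamini-Hochberg adjustment over all lncRNAs tested, and a lncRNA passed below 0.05. In whole cells, 10 of 11 ESC lncRNAs were in the table and summed to 165 to 182 FPKM with control AMO, 123 to 149 with U1 AMO, 142 to 150.5 with U2 AMO and 138 to 149.8 with U1+U2 AMO. They summed to 241 to 252 at 0 h and 215 to 226 at 4 h of IAA, led by Lncenc1. Lists of lncRNAs of differentiated cells had 6 of 9 in the table, summing to 20.2 to 28.2, 15.9 to 17.5, 14.5 to 18.6 and 15.3 to 17.3 FPKM in the same AMO order, and to 33.9 to 39.2 and 41.3 to 44.9. Whether these sums play a part in the results below was not tested. In bulk RNA, fewer cells with a transcript and less transcript per cell cannot be told apart.

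The choice of members rests on U1 AMO against control AMO in the 3 fractions, so those values are a description. Gm37262 had chromatin levels of 2.71, 2.49 and 3.90 with control AMO and 16.2, 18.0 and 23.7 with U1 AMO (log2 2.60). Its nucleoplasmic levels were 0.47, 0.18 and 0.21 against 7.11, 4.03 and 8.10 (log2 3.75), and its cytoplasmic levels 0.88, 0.23 and 0.45 against 2.99, 5.03 and 6.97 (log2 2.88). Every U1 AMO library lay above every control library in all 3 fractions.

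Gm44130 was the lowest of the set in control cells. On chromatin it read 1.15, 0.72 and 1.19 with control AMO and 2.95, 3.63 and 5.05 with U1 AMO (log2 1.73). In cytoplasm it read 0.21, 0.35 and 0.21 against 3.15, 2.71 and 4.25 (log2 2.96), and in nucleoplasm 0.07, 0.06 and 0.07 against 2.96, 1.46 and 3.49 (log2 3.33). The nucleoplasmic control values lie below the 0.2 added before the log. The groups do not overlap in any of the 3 fractions.

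Gm44045 was the highest of the 5 on chromatin, at 8.05, 7.98 and 7.87 with control AMO and 22.4, 24.9 and 29.6 with U1 AMO (log2 1.65). Its cytoplasmic levels were 1.68, 1.73 and 1.77 against 5.58, 7.33 and 7.54 (log2 1.85), and its nucleoplasmic levels 1.45, 0.60 and 0.74 against 11.9, 6.54 and 9.14 (log2 3.09). Again no library of one group reached the other.

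Gm45354 had 2.39, 2.60 and 3.80 on chromatin with control AMO and 6.57, 9.27 and 11.8 with U1 AMO (log2 1.58). In cytoplasm it had 0.65, 0.47 and 0.68 against 0.96, 2.81 and 2.47 (log2 1.41), and in nucleoplasm 0.12, 0.16 and 0.23 against 1.97, 1.58 and 2.03 (log2 2.48). The lowest U1 AMO library in cytoplasm, 0.96, was not far above the highest control, 0.68.

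Gm42929 had a different pattern. Its cytoplasmic levels were 1.20, 2.73 and 1.08 with control AMO and 12.0, 17.6 and 20.4 with U1 AMO (log2 3.24), and its nucleoplasmic levels 0.73, 0.43 and 0.26 against 2.88, 1.93 and 2.88 (log2 2.08). On chromatin it read 5.22, 6.95 and 6.22 against 2.90, 4.16 and 5.80 (log2 -0.54), with overlapping groups, where the median of all lncRNAs was -0.80. With libraries centred on their medians the chromatin value was 0.30, the opposite sign. As deposited, its soluble libraries were all higher with U1 AMO, and its chromatin libraries were not.

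**Figure D1:**
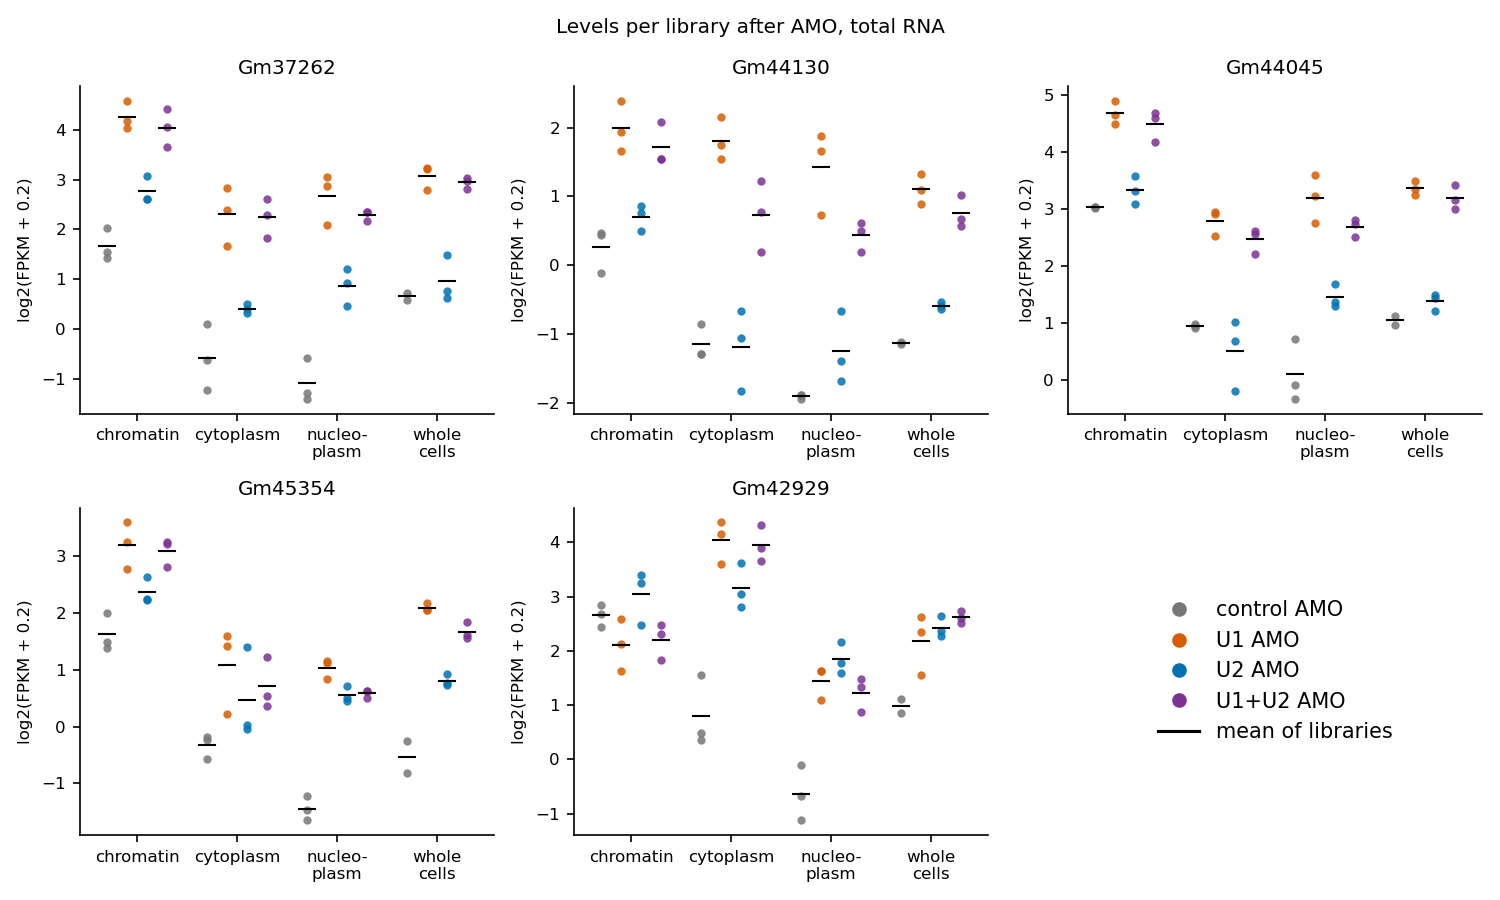
Levels of the 5 lncRNAs as log2(FPKM + 0.2) in each AMO library (points), by fraction and AMO, with black bars for the mean of the log2 values (3 libraries, 2 for whole-cell control AMO). In the panels other than Gm42929 the U1 AMO and U1+U2 AMO points lie above the control in every fraction, while chromatin Gm42929 reads 2.90 to 5.80 FPKM with U1 AMO and 5.22 to 6.95 with control AMO.

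Among lncRNAs with a mean at or above the median, Gm37262, Gm44130, Gm44045 and Gm45354 held ranks 1 to 4 of 628 by rise on chromatin, with Gm42866 just outside at log2 1.56. Gm42929 was at rank 228 there. In cytoplasm Gm42929, Gm44130 and Gm37262 held ranks 1 to 3 of 621, with Gm12207 next at 2.56, and Gm44045 was at rank 13; Gm45354 had a mean below the median and was not ranked. In nucleoplasm Gm37262, Gm44130, Gm44045 and Gm45354 held ranks 1, 2, 4 and 10 of 571, with Gm43312 next at 2.46, and Gm42929 was at rank 25. In the background, every U1 AMO library lay above every control library for 6.61% of lncRNAs on chromatin, 11.3% in cytoplasm and 15.1% in nucleoplasm; the members' counts were 4, 5 and 5 of 5, from the contrasts that chose them.

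U2 AMO alone, against the same control libraries, is also a description. Gm42929 was the member that responded most in cytoplasm, at 6.76, 12.1 and 8.05 against 1.20, 2.73 and 1.08 (log2 2.36), and it reached 4.26, 3.24 and 2.83 in nucleoplasm (log2 2.48). Gm37262 lay at 5.88, 5.91 and 8.25 on chromatin after U2 AMO (log2 1.10), between the control and U1 AMO values. Gm44130 and Gm44045 overlapped the control libraries in cytoplasm (log2 -0.04 and -0.44), and the sign of the first changed to 0.12 after centring. In nucleoplasm all 5 lay above the controls after U2 AMO, where 35.8% of all lncRNAs did. The changes of Gm45354, Gm37262, Gm44045 and Gm44130 there were log2 1.99, 1.95, 1.35 and 0.66, with a median of 0.45 over all lncRNAs. After centring that of Gm45354 was 1.48. On chromatin Gm45354, Gm44130, Gm42929 and Gm44045 changed by log2 0.74, 0.44, 0.39 and 0.30, with a median of -0.14 over all lncRNAs.

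Adding the U1 AMO to the U2 AMO gives a comparison of groups that the choice of members did not use. It compares 50 µM U1+U2 AMO with 75 µM U2 AMO, so the dose differs along with the target. In the 3 fractions the fit also holds the control and U1 AMO libraries, which chose the members. They enter the estimate of spread and the filter on low values, so these tests are not fully separate from the choice. On chromatin 4 of the 5 were higher and 1, Gm42929, lower, where 4.06% of 1256 lncRNAs were higher, 35.4% were lower and the median change was -0.57 (51 higher and 444 lower, 163 and 127 after centring of libraries on their medians). Gm37262 read 5.88, 5.91 and 8.25 with U2 AMO and 12.5, 16.4 and 21.3 with U1+U2 AMO (log2 1.28 ± 0.24 SE, limma adjusted p = 0.00174). Gm44045 read 8.31, 11.8 and 9.73 against 17.8, 25.5 and 24.0 (log2 1.15, limma adjusted p = 0.000759). Gm44130 read 1.62, 1.21 and 1.49 against 2.71, 2.72 and 4.05 (log2 1.02, limma adjusted p = 0.00805). The calls of these 3 lncRNAs held with each library left out.

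Gm45354 rose on chromatin from 4.44, 5.95 and 4.51 to 6.76, 9.03 and 9.25 (log2 0.73, limma adjusted p = 0.0324). Gm42929 fell from 5.37, 10.4 and 9.35 to 3.36, 5.34 and 4.77 (log2 -0.84 ± 0.29 SE, limma adjusted p = 0.036). Both are less stable than the other 3. The Gm45354 call was lost without U2 AMO library 1 or 3 or U1+U2 AMO library 2 or 3 (adjusted p = 0.0774 to 0.0964), and the Gm42929 call without U2 AMO library 2 or 3 or U1+U2 AMO library 1 or 3 (0.0578 to 0.137). Gm42929 also fell little more than the median lncRNA: with libraries centred on their medians its change was -0.28 (adjusted p = 0.398).

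In nucleoplasm 3 of the 5 were higher after U1+U2 AMO than after U2 AMO, where 1.31% of 1142 lncRNAs were and the median was -0.58 (15 higher and 346 lower, 91 and 118 after centring). Gm37262 went from 1.69, 1.18 and 2.12 to 4.30, 4.93 and 4.92 (log2 1.43, limma adjusted p = 0.00436). Gm44130 went from 0.18, 0.11 and 0.43 to 0.94, 1.21 and 1.33 (log2 1.68, limma adjusted p = 0.0024), and Gm44045 from 2.39, 2.26 and 3.01 to 6.51, 6.84 and 5.49 (log2 1.24, limma adjusted p = 0.0067). Gm45354 overlapped, at 1.21, 1.16 and 1.43 against 1.22, 1.34 and 1.34 (log2 0.04, adjusted p = 0.899). Gm42929 had 4.26, 3.24 and 2.83 against 1.63, 2.58 and 2.32 (log2 -0.62, adjusted p = 0.108).

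In cytoplasm the same 3 passed, where 1.61% of 1242 lncRNAs were higher. Gm37262 went from 1.05, 1.22 and 1.13 to 3.36, 4.68 and 5.92 (log2 1.83, limma adjusted p = 0.0398). Gm44130 went from 0.08, 0.28 and 0.43 to 2.14, 0.94 and 1.51 (log2 1.92, limma adjusted p = 0.0328), and Gm44045 from 0.68, 1.84 and 1.41 to 5.96, 4.44 and 5.71 (log2 1.96, limma adjusted p = 0.029). These calls rest on all 6 libraries. Leaving out any one left 0 to 9 calls among all lncRNAs in place of 33, and only the Gm44045 call without U2 AMO library 2 remained; the changes themselves stayed between 1.59 and 2.22. With the replicate number as a block, where same-numbered libraries deviate together, 60 lncRNAs passed, these 3 among them. Leaving out a library was not run with this block. Gm42929 was at 12.4, 14.7 and 19.8 against 6.76, 12.1 and 8.05 (log2 0.80, adjusted p = 0.337), and Gm45354 at 1.25, 1.08 and 2.13 against 0.77, 2.44 and 0.82 (log2 0.24, adjusted p = 0.904).

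In whole cells 4 of the 5 were higher after U1+U2 AMO than after U2 AMO, where 8.31% of 1251 lncRNAs were. Gm37262 read 1.35, 1.49 and 2.61 with U2 AMO and 8.03, 6.87 and 7.64 with U1+U2 AMO (log2 1.98, limma adjusted p = 0.000782). Gm44045 read 2.61, 2.50 and 2.13 against 10.5, 7.83 and 8.69 (log2 1.81, limma adjusted p = 0.000205). Gm44130 (log2 1.35, limma adjusted p = 0.00148) and Gm45354 (log2 0.86, limma adjusted p = 0.00887) rose too, while Gm42929 stood at 6.02, 4.96 and 4.62 against 6.41, 5.91 and 5.48 (log2 0.19, adjusted p = 0.666). Across chromatin, cytoplasm, nucleoplasm and whole cells, 5 of the 1124 lncRNAs tested in all 4 (0.445%) were higher in each: Gm37262, Gm44130 and Gm44045, with Gm37522 and Gm38359, which were named after their values were seen. This count needs the cytoplasmic calls. In fits that ignore replicate numbers it is 0 without any one cytoplasmic library other than U2 AMO library 2. Without that one Gm37262 and Gm44130 drop out.

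Whole cells against control AMO were not used by the rule either, but they may come from the same nucleofections, and the 3 AMOs share the same 2 control libraries. After U1 AMO all 5 were higher, where 6.24% of 1251 lncRNAs were (78 higher and 90 lower, 102 and 58 after centring). Gm45354 read 0.64 and 0.37 with control AMO and 3.92, 3.93 and 4.28 with U1 AMO (log2 2.62, limma adjusted p = 3.06e-05). Gm37262 read 1.30 and 1.46 against 9.19, 9.02 and 6.77 (log2 2.42), Gm44045 1.98 and 1.76 against 11.02, 10.03 and 9.25 (log2 2.31) and Gm44130 0.26 and 0.25 against 2.30, 1.66 and 1.94 (log2 2.24). Gm42929 read 1.97 and 1.60 against 4.91, 2.74 and 5.99 (log2 1.20, limma adjusted p = 0.0154), a call lost without either control library (adjusted p = 0.0664 and 0.109).

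After U2 AMO only Gm45354 and Gm42929 passed in whole cells, 2 of 5 where 2.24% of all lncRNAs were higher. Gm45354 reached 1.49, 1.46 and 1.70 (log2 1.34, limma adjusted p = 0.00553) and Gm42929 6.02, 4.96 and 4.62 (log2 1.44, limma adjusted p = 0.0162). The Gm45354 call was lost without control library 2 (0.056), and the Gm42929 call without either control library or U2 AMO library 1 (0.0593 to 0.13). Gm37262 (log2 0.30), Gm44130 (log2 0.54) and Gm44045 (log2 0.33) did not pass. After U1+U2 AMO all 5 were higher (log2 2.29 for Gm37262, 1.89 for Gm44130, 2.15 for Gm44045, 2.20 for Gm45354 and 1.63 for Gm42929), where 6.24% of all lncRNAs were, with 78 higher and 67 lower, or 95 and 47 after centring.

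**Figure D2:**
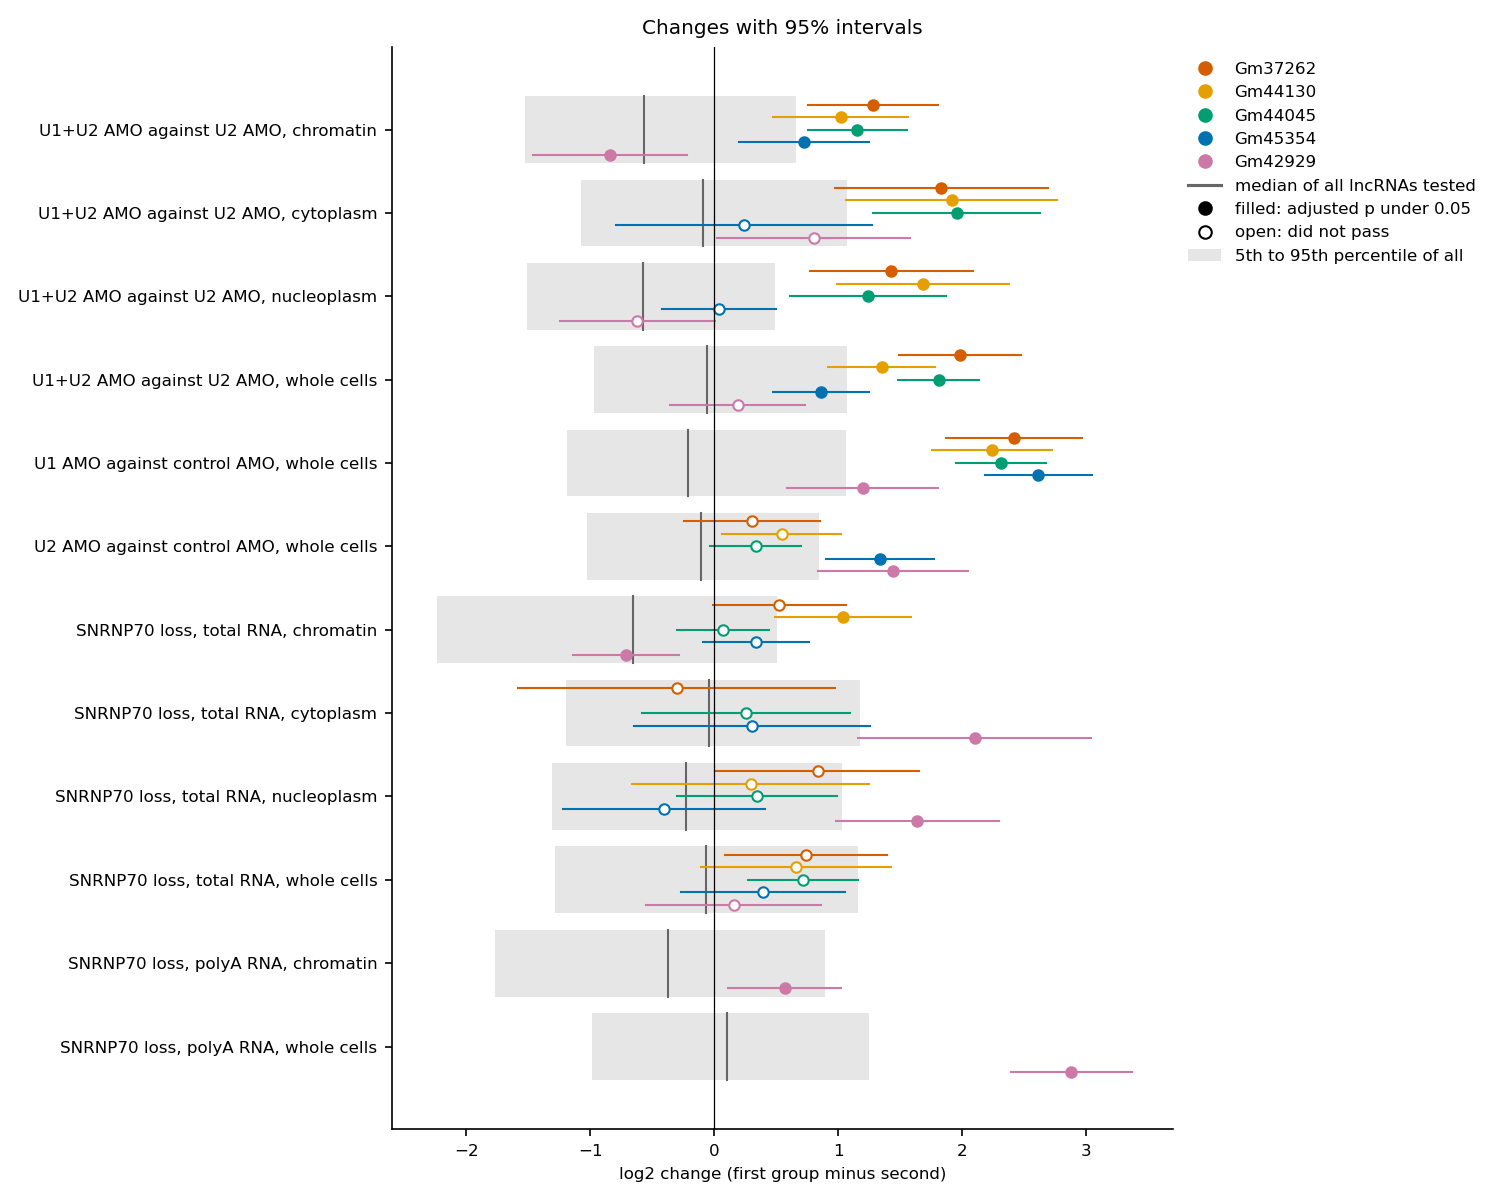
Log2 changes of the 5 lncRNAs (points, filled where adjusted p was under 0.05) with 95% intervals from limma in 12 comparisons, over the 5th to 95th percentile (grey) and median (dark line) of all lncRNAs tested. Gm37262, Gm44130 and Gm44045 lie right of the grey band in all 4 comparisons of U1+U2 AMO with U2 AMO, and Gm42929 lies right of it in cytoplasm, nucleoplasm and polyA whole cells after SNRNP70 loss.

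Loss of SNRNP70 is another way to disturb U1 snRNP, measured in other libraries and for a longer time. On chromatin 1 of the 5, Gm44130, was higher and 1, Gm42929, lower, where 3.17% of 1260 lncRNAs were higher, 46.7% lower and the median change was -0.65. As counts these are 40 higher and 588 lower, which centring on library medians turned into 265 and 210. Gm44130 rose from 0.94, 0.72 and 0.64 at 0 h to 1.71, 1.73 and 1.55 at 4 h (log2 1.04, limma adjusted p = 0.00624). Gm37262 had 5.93, 3.29 and 3.59 against 7.09, 5.37 and 5.62 (log2 0.53, adjusted p = 0.0932; 0.0179 without 0 h library 1). Gm45354 had 3.92, 3.50 and 4.26 against 5.94, 4.53 and 4.47 (log2 0.34, adjusted p = 0.169), and Gm44045 13.3, 10.05 and 12.9 against 13.0, 12.3 and 12.5 (log2 0.07, adjusted p = 0.757). These 3 did not fall with the median: after centring of libraries on their medians they were at log2 1.27, 1.08 and 0.82 and passed (limma adjusted p = 0.00152, 0.000752 and 0.00113).

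Gm42929 fell on chromatin from 7.30, 5.69 and 6.55 to 4.05, 4.52 and 3.29 (log2 -0.71, limma adjusted p = 0.0114). That fall is the size of the median change, and after centring the value was 0.03. In cytoplasm it rose from 0.62, 0.19 and 0.47 to 2.55, 2.00 and 1.59 (log2 2.10 ± 0.40 SE, limma adjusted p = 0.0328), the only member to pass where 2.66% of 1089 lncRNAs were higher. In nucleoplasm it rose from 0.44, 0.55 and 0.29 to 1.79, 1.58 and 1.20 (log2 1.64, limma adjusted p = 0.00981), where 5.21% of 1209 were higher (63 higher and 130 lower, 148 and 90 after centring). The cytoplasmic call was lost with any 1 of the 6 libraries left out (adjusted p = 0.0513 to 0.132), while the nucleoplasmic call held each time.

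The other members were low in the soluble fractions after SNRNP70 loss. In cytoplasm Gm37262 read 0.23, 0.13 and 0.22 at 0 h and 0.06, 0.05 and 0.44 at 4 h (log2 -0.30), Gm44045 0.27, 0.13 and 0.22 against 0.31, 0.20 and 0.28 (log2 0.26), and Gm45354 0.04 to 0.12 against 0.04 to 0.18 (log2 0.30). Gm44130, with at most 0.10 in any cytoplasmic library and one listed at 0, was too low to test. In nucleoplasm Gm37262 read 0.50, 0.25 and 0.16 against 0.66, 0.58 and 0.50 (log2 0.84, limma adjusted p = 0.151, or 0.0458 after centring). Its groups meet at 0.50, and the remaining 3 members overlapped between 0 h and 4 h.

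In whole cells 0 of the 5 passed limma, with 2 at an unadjusted p under 0.05, where 5.31% of 1261 lncRNAs were higher. All 5 changes were above 0. Gm44045 came nearest, at 2.06, 2.35 and 2.89 against 4.60, 3.52 and 4.01 (log2 0.71, adjusted p = 0.0508; 0.0451 with 1 added before the log and 0.043 after centring). Gm37262 was at 1.68, 1.36 and 1.19 against 2.99, 1.60 and 2.88 (log2 0.74, adjusted p = 0.134). Gm44130 (log2 0.66), Gm45354 (log2 0.39) and Gm42929 (log2 0.16) lay further from the threshold.

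PolyA RNA of the same line was read for Gm42929 only. In whole cells it rose from 0.43, 0.35 and 0.29 to 3.30, 3.15 and 3.26 FPKM, 9.07-fold between means (log2 2.88 ± 0.22 SE, limma adjusted p = 4.2e-05), which was rank 2 of 1135 lncRNAs, where 13.0% were higher (147 higher and 80 lower, 107 and 91 after centring). The call held with each library left out. On chromatin polyA RNA rose from 1.45, 1.06 and 1.51 to 2.09, 1.69 and 2.31 (log2 0.57, limma adjusted p = 0.0451), where 8.96% of 1217 were higher and the median was -0.37 (109 higher and 448 lower, 232 and 201 after centring). It was lost without 0 h library 1 or 2 or 4 h library 1 or 3 (0.0724 to 0.134). Total RNA of whole cells at the same times read 1.38, 1.55 and 2.34 against 2.49, 2.17 and 1.31 (log2 0.16), with overlapping groups. The difference between the polyA and total RNA changes was not tested.

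**Figure D3:**
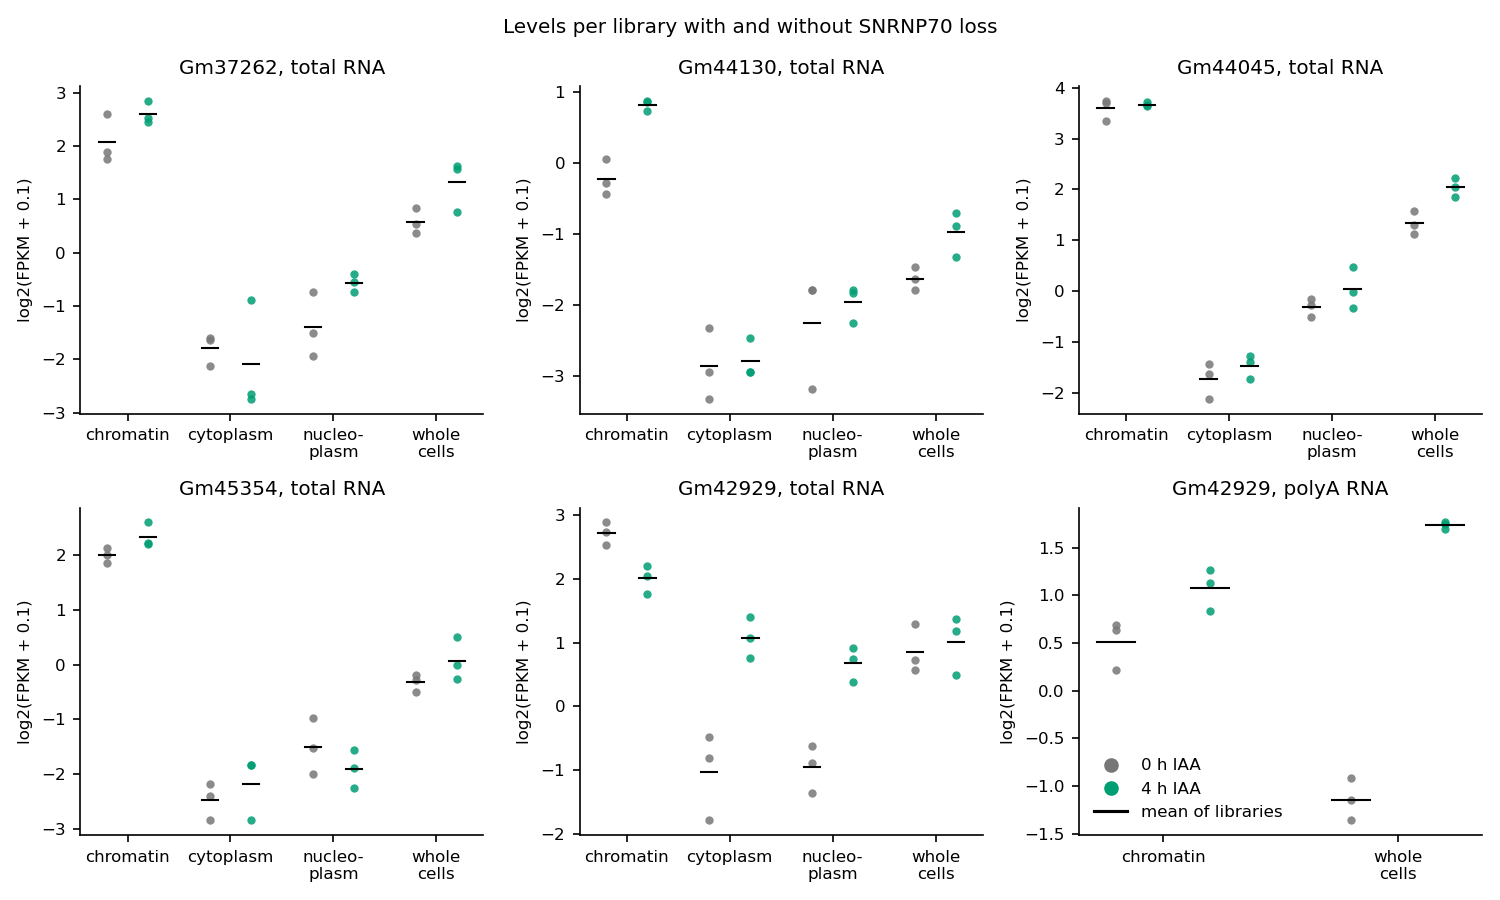
Levels of the 5 lncRNAs as log2(FPKM + 0.1) in each SNRNP70-AID library (points) at 0 h and 4 h of IAA, by fraction, with black bars for the mean of 3 log2 values, and Gm42929 in polyA RNA in the last panel. Gm42929 lies higher at 4 h in cytoplasm and nucleoplasm and lower on chromatin in total RNA, and polyA RNA of whole cells goes from 0.29 to 0.43 FPKM up to 3.15 to 3.30.

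Before treatment all 5 lay towards chromatin. At 0 h of IAA the log2 chromatin level minus the mean of the cytoplasmic and nucleoplasmic log2 levels was 4.62 for Gm44045, 3.98 for Gm45354, 3.71 for Gm42929, 3.67 for Gm37262 and 2.34 for Gm44130. All 5 passed limma, where 68.8% of 1277 lncRNAs were higher on chromatin and the median was 1.87, from 878 higher and 143 lower. The soluble levels of Gm44130 at 0 h were only 0 to 0.19 FPKM, near the 0.1 added before the log. Its balance lay above that of 59.6% of all lncRNAs. After centring 462 were higher and 493 lower, and Gm44130 no longer passed (log2 0.46, adjusted p = 0.175), while the other 4 did. In control AMO cells the same balance was 2.57 for Gm42929, 2.51 for Gm45354, 2.50 for Gm44045, 2.50 for Gm37262 and 1.79 for Gm44130, with a median of 1.10.

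In every treated group the median balance of all lncRNAs was lower than in its control, at 0.38, 0.79 and 0.52 with U1, U2 and U1+U2 AMO against 1.10, and at 1.04 at 4 h of IAA against 1.87 at 0 h. The balance of Gm42929 was -0.63 with U1 AMO, 0.54 with U2 AMO and -0.39 with U1+U2 AMO, against 2.57 with control AMO, and it went from 3.71 to 1.13 with loss of SNRNP70. The U1 and control AMO levels in these fractions chose the members, so the AMO balances are a description. Gm37262, Gm44045 and Gm45354 were also lower with each of the other AMOs than with control AMO, between 1.68 and 2.51 over all AMO groups. Gm44130 was at 1.79 with control AMO, 0.38 with U1 AMO, 1.92 with U2 AMO and 1.14 with U1+U2 AMO. Its U1 AMO value was near the median of all lncRNAs. After SNRNP70 loss Gm44045 went from 4.62 to 4.39. The balance rose for Gm37262 from 3.67 to 3.93, for Gm45354 from 3.98 to 4.37 and for Gm44130 from 2.34 to 3.19.

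Whether a change on chromatin differed from that in a soluble fraction was tested in 6 differences, all chosen after the data had been seen. These fits, and that of the baseline balance, take libraries of different fractions as independent. Whether same-numbered fractions came from a shared culture was not checked. First came chromatin against cytoplasm and against nucleoplasm, for SNRNP70 loss and for U1+U2 AMO against U2 AMO, and then chromatin against the mean of both. After SNRNP70 loss the chromatin change of Gm42929 was below its cytoplasmic change by log2 -2.81 ± 0.43 SE (limma adjusted p = 0.000297), below its nucleoplasmic change by -2.35 ± 0.43 SE (limma adjusted p = 0.00499) and below their mean by -2.58 ± 0.37 SE (limma adjusted p = 0.000294). In the background 21.4%, 5.40% and 19.2% of 1277 lncRNAs were lower. In the same order 9, 1 and 4 were higher and 273, 69 and 245 lower, which became 50, 6 and 23 higher and 68, 15 and 45 lower after centring. In these 3 differences 0 of the other 4 members passed, and 0 of the 4 had an unadjusted p under 0.05. With 1 added before the log Gm44130 passed in all 3, in the opposite direction to Gm42929 (log2 0.59, 0.55 and 0.57, limma adjusted p = 0.00119, 0.00397 and 0.000516). The soluble levels of Gm44130 were only 0 to 0.19 FPKM, so with 1 added these differences mostly restate its rise on chromatin. They cannot show a contrast between fractions. Gm44130 also passed against cytoplasm after centring (limma adjusted p = 0.0428) and against the mean of both without 0 h nucleoplasm library 2 (0.0457). Gm37262 passed against cytoplasm without 4 h cytoplasm library 3 (0.0375).

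For U1+U2 AMO against U2 AMO the differences of Gm42929 were less clear. Against cytoplasm its value was -1.64 ± 0.46 SE (limma adjusted p = 0.0454), where 3.13% of 1277 lncRNAs were lower, and it did not pass after centring (-1.12, adjusted p = 0.23). Leaving out a library lost the call in 9 of 12 cases. Against nucleoplasm it was -0.22 (adjusted p = 0.999) and against the mean of both -0.93 (adjusted p = 0.399). In those last 2 differences limma called 0 lncRNAs, with 47 and 124 at an unadjusted p under 0.05.

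**Figure D4:**
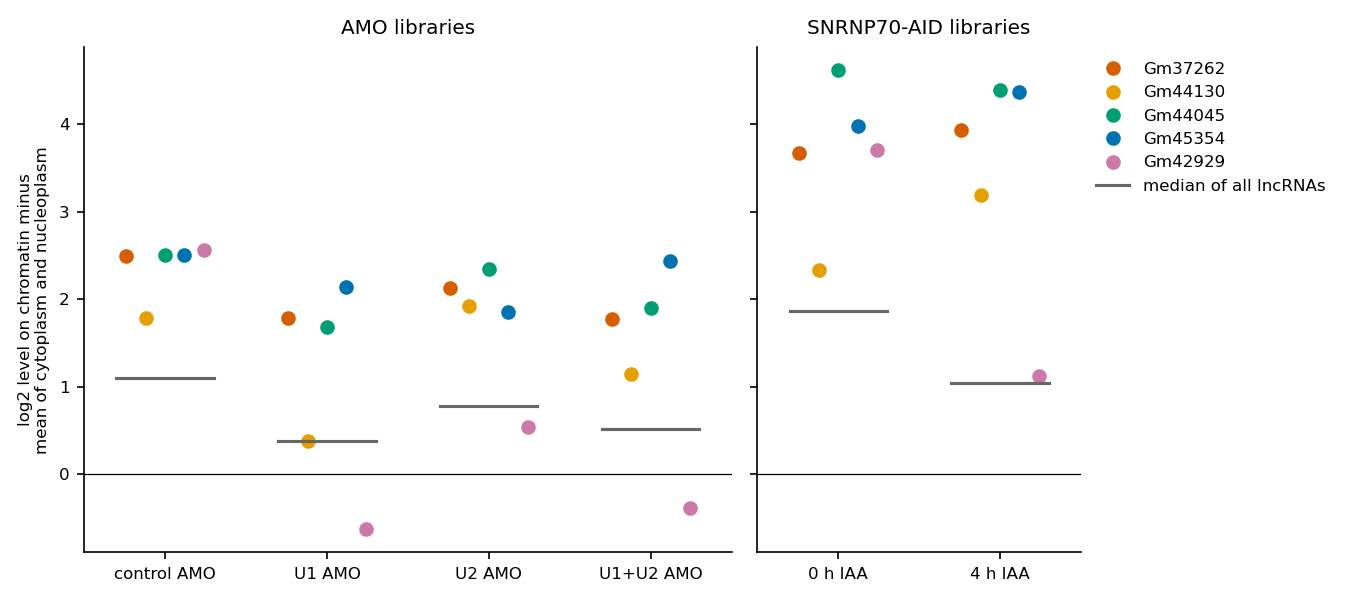
Balance of each of the 5 lncRNAs, as the log2 level on chromatin minus the mean of the log2 levels in cytoplasm and nucleoplasm, in 4 AMO groups and at 0 h and 4 h of IAA (points, means over libraries), with the median of all lncRNAs as grey lines. Gm42929 goes from 2.57 to -0.63 between control and U1 AMO and from 3.71 to 1.13 between 0 h and 4 h. The control and U1 AMO points come from the libraries that chose the members.

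The 4 lncRNAs with higher chromatin levels after U1 AMO resembled each other over the 47 AMO libraries, with a Pearson r of 0.786 to 0.952 over their 6 pairs, while the 4 pairs with Gm42929 gave 0.304 to 0.442. These values describe libraries that share fractions and treatments, on log2 levels minus the library median. The libraries include those of U1 and control AMO that chose the members. The split between the 4 and Gm42929 is therefore a description and no separate result. Among 1124 lncRNAs, those most like Gm37262 were Gm43817 (r = 0.962) and Gm37906 (0.96), those most like Gm44130 were Gm45222 (0.944) and Gm44045 (0.919), and those most like Gm44045 were Gm37531 (0.971) and Gm37906 (0.963). Gm45354 was most like Gm45477 (0.9605) and C030017G13Rik (0.96). Gm42929 had no partner as close, with A630052C17Rik (0.647) and Gm29170 (0.628) highest.

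For comparison, a list of 16 well-known lncRNAs, among them the nuclear RNAs Malat1 and Neat1 and the snoRNA hosts Gas5 and Snhg1, was read in the same fits. After U1+U2 AMO against U2 AMO 0 of the 16 were higher and 5 lower on chromatin (median -0.42). Of all lncRNAs 4.06% were higher and 35.4% lower there (median -0.57). In cytoplasm 1 was higher and 1 lower, where 1.61% of all were higher. In nucleoplasm 0 were higher and 3 lower, where 1.31% of all were higher. In whole cells 3 were higher and 2 lower, where 8.31% of all were higher. Against control AMO in whole cells, 2, 2 and 1 were higher and 2, 2 and 1 lower after U1, U2 and U1+U2 AMO. Of all lncRNAs 6.24%, 2.24% and 6.24% were higher. After SNRNP70 loss 1 was higher and 10 lower on chromatin (median -0.70). Of all lncRNAs 3.17% were higher and 46.7% lower there (median -0.65). In cytoplasm 6 were higher and 0 lower, where 2.66% of all were higher. In nucleoplasm 4 were higher and 1 lower, where 5.21% of all were higher. In whole cells 4 were higher and 2 lower, where 5.31% of all were higher. In polyA RNA of whole cells 8 were higher and 1 lower (median 0.40), where 13.0% of all were higher (median 0.099). In polyA RNA on chromatin 3 were higher and 5 lower, where 8.96% of all were higher. These counts describe the list and were not tested against the 5 members.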

How the data were processed

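Total RNA (ribosomal RNA depleted, with lacZ and mCherry spike-in RNA) and polyA RNA (ERCC spike-in) were sequenced from whole cells and fractions, per the labels' protocols. The deposited values are FPKM, which the authors scaled to spike-in RNA in all fractions except whole cells, per the file headers. CASAVA, TopHat and Cufflinks with build mm10 are named in the submitters' processing notes; for annotation and depth, the sources used here give nothing. Precision was therefore judged from replicate spread alone, with no interval for counting error. Strand use in counting is unknown, so overlapping antisense genes may share signal.

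The 5 members were found by symbol through their Ensembl identifiers. Of the value columns, 1 names no fraction and was left out. Entries that share an identifier (3 in each total RNA table, 2 in the polyA table) were left out. FPKM values were taken as log2 after adding 0.2 (AMO) or 0.1 (other tables), each the 10th percentile of its nonzero values, and lncRNAs with at least 3 libraries at that amount were tested in limma 3.58.1 (R 4.3.3; eBayes with trend, Benjamini-Hochberg, threshold 0.05), 1 fit per table and fraction over all groups, with no replicate block. The baseline balance and the differences between fractions instead used 1 fit over the 3 fractions. The script was tested on simulated data. U1, U2 and U1+U2 AMO against control AMO in the fractions were described without a test, since the first chose the members and all share controls. Planned tests of labelled RNA were not run, since that table lists 0 members.

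Alternatives were 1 added before the log, no filter, centring on library medians, a replicate block and leaving out each library. For U1+U2 AMO against U2 AMO the deviations of same-numbered libraries correlated in every pair on chromatin (0.392 to 0.587), in cytoplasm (0.233 to 0.328) and in nucleoplasm (0.112 to 0.423). These libraries were taken as paired by number. The main fits and those without 1 library ignore this pairing. For SNRNP70 loss on chromatin the correlations were 0.0952 to 0.491, the lowest just short of the cutoff used, so pairing there is unsettled. In the other comparisons pairing was not shown. Named genes are the 5 members, the 2 lncRNAs most like each, and those just outside the choice; list members given as examples, Gm37522 and Gm38359 fall outside this rule and were named after their values were seen. The members and lists were chosen with earlier results of these data known. The 6 differences between fractions were added after seeing the data, the last 2 after the first 4 had been seen. Positions and sequences of the members are not used here.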

Additional observations from a re-analysis of the deposited data

Results flagged for a closer look

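Some values of Gm42929 stand out because its change on chromatin differed, by limma's test of the difference, from its change elsewhere. After SNRNP70 loss the difference was -2.81 against cytoplasm, -2.35 against nucleoplasm and -2.58 against the mean of both, on the log2 scale. For U1+U2 AMO against U2 AMO it was -1.64 against cytoplasm. That call was lost after centring (-1.12, limma adjusted p = 0.23) and was kept in 3 of 12 fits with 1 library left out. All of these differences were computed after the data had been seen. For U1+U2 AMO against U2 AMO the differences against nucleoplasm and against the mean of both did not pass.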

How the results depend on the processing

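Centring on library medians, 1 added before the log, no filter, a replicate block and leaving out each library gave 1053 tested member values of the same direction and call, 54 that lost a call, 14 that gained one and 26 that changed sign. Of the values described without a test, 30 moved by more than the spread between libraries. With centring, U1+U2 AMO against U2 AMO gave 290 calls on chromatin (163 higher, 127 lower) and 209 in nucleoplasm (91, 118). The added differences for SNRNP70 loss gave 118 (against cytoplasm), 21 (nucleoplasm) and 68 (mean of both), and for U1+U2 AMO 0 and 1 (cytoplasm, nucleoplasm). With 1 added they gave 491, 290 and 473, and 125, 13 and 52. With the replicate block, U1+U2 AMO against U2 AMO gave 60 calls in cytoplasm, SNRNP70 loss 83 in whole cells, and the difference against nucleoplasm after SNRNP70 loss 115, with 1 for U1+U2 AMO against the mean of both; in the paired fractions it changed no member's call. After SNRNP70 loss the block gave Gm37262 on chromatin a call (limma adjusted p = 0.0273), where pairing is unsettled (correlations of 0.0952 to 0.491). It took that of Gm42929 in cytoplasm (limma adjusted p = 0.0595), where numbers were not shown to pair libraries.

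Leaving out 1 library, counts ran from 321 to 514 on chromatin, 0 to 9 in cytoplasm, 218 to 341 in nucleoplasm and 113 to 136 in whole cells for U1+U2 AMO against U2 AMO. In whole cells against control AMO they ran from 70 to 152 for U1 AMO, 0 to 35 for U2 AMO and 71 to 122 for U1+U2 AMO, where a lone control library is assumed to vary like the other groups. For SNRNP70 loss they ran from 10 to 31 in cytoplasm, 56 to 132 in nucleoplasm, 58 to 98 in whole cells and 145 to 175 in polyA whole cells. The added differences ran from 196 to 289, 25 to 68 and 148 to 260 for SNRNP70 loss, and 7 to 73, 0 to 0 and 0 to 1 for U1+U2 AMO.

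Of the tested member values that changed sign, 0 passed the threshold with the new sign. Of the described values, centring turned Gm42929 on chromatin to 0.30 for U1 AMO and 0.35 for U1+U2 AMO against control AMO, from -0.54 and -0.45. Gm44130 in cytoplasm after U2 AMO, at -0.04, also changed sign, with 0.12 after centring. Centring turned Gm42929 on chromatin after SNRNP70 loss to 0.032, and the SNRNP70 differences of Gm44045 to 0.54 (cytoplasm), 0.22 (nucleoplasm) and 0.38 (mean), and of Gm37262 to 0.19 (nucleoplasm; 0.16 with 1 added). With 1 added, the U1+U2 AMO difference against nucleoplasm was 0.074 for Gm37262 and 0.058 for Gm44045. Leaving out 1 library, U1+U2 AMO against U2 AMO ran from -0.016 to 0.71 in cytoplasm and -0.016 to 0.11 in nucleoplasm for Gm45354. SNRNP70 loss ran from -0.055 to 0.14 on chromatin for Gm44045, -0.90 to 0.021 in cytoplasm for Gm37262, -0.17 to 0.53 in nucleoplasm for Gm44130 and -0.019 to 0.42 in whole cells for Gm42929. The SNRNP70 difference against cytoplasm ran from -0.34 to 0.0058 for Gm44045 and -0.30 to 0.22 for Gm45354, and the U1+U2 AMO difference against nucleoplasm from -0.34 to 0.053 for Gm37262 and -0.20 to 0.072 for Gm44045. The causes were not tested. Planned tests of labelled RNA, with their count-based alternative, were not run, since that table lists 0 members.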
